A study of Mus musculus with 2 samples.

Results

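The 10 core circadian clock genes Clock, Arntl, Npas2, Per1, Per2, Per3, Cry1, Cry2, Nr1d1 and Nr1d2 were examined for open chromatin in the frontal cortex of young mice. They were taken by symbol, and all 10 were found among the 21938 protein-coding gene records of the GENCODE M21 annotation on mm10. Each was examined over its gene record plus 10 kb on each side, which is called its window. Peaks and footprints with their midpoint in a window were counted for that gene. They were split into those no more than 500 bp from a start site of transcription (TSS) in that annotation and all others. The measured values played no part in the choice of the genes, although earlier results from these data were known when the genes were proposed.

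The clock is a feedback loop of transcription that runs in most mammalian cells, neurons included. The proteins of Clock and Arntl (also called Bmal1) pair and activate genes through E-boxes, and that of Npas2, a relative of Clock found in forebrain, can take the place of Clock. The PER and CRY proteins made from E-box genes collect and inhibit that pair. The nuclear receptors REV-ERBα (Nr1d1) and REV-ERBβ (Nr1d2) form a further loop, in which they repress Arntl and other genes through ROR elements. Proteins such as DBP act on D-boxes, and signals that raise cyclic AMP or calcium act on the cyclic AMP response element (CRE), so Per genes answer to activity as well as to the clock.

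The study measured DNase I accessibility by sequencing (DNase-seq), in which the enzyme cuts open chromatin, and it holds 1 group of 2 libraries, replicate 1 and replicate 2. Both came from frontal cortex tissue of female B6CASTF1/J mice aged 14 days, which are first-generation crosses of C57BL/6J and CAST/EiJ, with no treatment in the labels. Each library has its own biosample, both carry the same donor label, and a description label adds the mark 3x without saying what it means, so spread between libraries may be technical and pooling of animals is unknown. The time of day of collection is not given in the sources used here. Bulk tissue mixes cell types, so that fewer cells with an open site and a less open site per cell cannot be told apart. With a single group no test between conditions exists, and values are given per library with no p-value.

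Replicate 1 held 93641 peaks and replicate 2 held 66196. The strength of a peak is the deposited signal, whose scale is not stated and whose values rise in whole multiples of 1 step per library. Strengths were higher in replicate 1: its median ratio to replicate 2 at gene starts was 1.55 over 12771 genes. The read depth behind each value is unknown. Among marker genes checked against the tissue label, 7 of 9 neuronal and 3 of 5 astrocyte genes had a peak at a start of their own in both libraries. The share over all protein-coding genes was 58.2%, so the astrocyte count was near that of any gene list, and the neuronal count was only somewhat higher. None of the 5 genes each of the oligodendrocyte, microglia, endothelial and liver lists did, although the oligodendrocyte, microglia and liver lists each had 1 such gene in replicate 1 and the endothelial list had 1 in replicate 2. All 9 neuronal genes had such a peak in replicate 1. Their median strength was 1.27 in replicate 1 and 1.25 in replicate 2. The median protein-coding gene with such a peak had 2.69 and 1.86. Whether the mix of cell types has a part in any value below was not tested.

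The sequences below are the stretches of member windows where an E-box, D-box or CRE lay under a footprint in both libraries, which makes them the places where the accessibility data and the letters of the clock motifs meet. A footprint is a short run of protected bases within open chromatin, and a match counted as lying under it when it overlapped the footprint widened by 5 bp on each side. Which protein protects the bases was not measured, so a match does not show that a clock protein was bound. The motifs searched on both strands were the E-box CACGTG, the E′-box CACGTT, the D-box TTANGNAA, the ROR core TAGGTCA and the CRE TGACGTCA, with the GC box GGGCGG for comparison. Overlapping matches of different motifs were counted separately. Capitals mark matches to the clock motifs, each line runs 5′ to 3′ in the direction of the gene, and up to 40 bases are shown on each side. The letters are those of the GRCm38 (mm10) reference, and the CAST/EiJ allele may differ. No printed stretch overlaps an annotated UTR.
Per1, upstream of the start, chr11:69094843-69095112, plus strand: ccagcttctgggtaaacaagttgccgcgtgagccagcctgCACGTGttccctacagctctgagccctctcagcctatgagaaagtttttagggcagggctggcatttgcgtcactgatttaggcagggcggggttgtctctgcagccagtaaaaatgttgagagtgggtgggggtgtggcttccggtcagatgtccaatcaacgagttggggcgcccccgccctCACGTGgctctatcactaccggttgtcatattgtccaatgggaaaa
Per1, intron, chr11:69097162-69097249, plus strand: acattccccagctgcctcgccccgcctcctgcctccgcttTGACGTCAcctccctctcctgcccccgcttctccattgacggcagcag
Per2, upstream of the start, chr1:91459402-91459489, minus strand: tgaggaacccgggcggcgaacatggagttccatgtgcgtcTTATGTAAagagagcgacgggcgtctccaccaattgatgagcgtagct
Per3, upstream of the start, chr4:151044776-151044863, minus strand: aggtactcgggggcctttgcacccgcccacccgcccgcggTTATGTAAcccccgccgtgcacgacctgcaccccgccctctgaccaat
Cry1, upstream of the start, chr10:85185069-85185154, minus strand: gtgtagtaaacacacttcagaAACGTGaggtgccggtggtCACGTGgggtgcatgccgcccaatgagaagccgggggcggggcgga
Nr1d1, intron, chr11:98773824-98774122, minus strand: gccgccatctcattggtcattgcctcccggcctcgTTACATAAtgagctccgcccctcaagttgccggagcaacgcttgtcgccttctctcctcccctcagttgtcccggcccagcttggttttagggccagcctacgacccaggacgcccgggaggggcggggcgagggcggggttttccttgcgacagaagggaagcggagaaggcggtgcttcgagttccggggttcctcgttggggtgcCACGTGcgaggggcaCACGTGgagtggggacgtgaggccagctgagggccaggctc
Nr1d1, the adjoining part of the same intron, chr11:98774123-98774199, minus strand: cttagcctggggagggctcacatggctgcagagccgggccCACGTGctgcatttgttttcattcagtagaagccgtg
Nr1d1, distal upstream, chr11:98783502-98783587, minus strand: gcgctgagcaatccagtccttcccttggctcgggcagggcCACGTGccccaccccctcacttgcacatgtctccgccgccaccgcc
Nr1d2, intron, chr14:18238485-18238718, minus strand: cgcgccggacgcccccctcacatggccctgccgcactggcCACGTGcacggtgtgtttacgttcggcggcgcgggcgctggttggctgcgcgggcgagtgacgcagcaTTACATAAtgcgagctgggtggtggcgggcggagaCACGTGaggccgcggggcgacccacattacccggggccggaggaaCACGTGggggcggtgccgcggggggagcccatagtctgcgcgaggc
Nr1d1 and Nr1d2 share a layout in which a D-box sits among several E-boxes inside an intron. Per2 and Per3 show a single D-box just upstream of the start, Per1 a pair of E-boxes and Cry1 an E-box with an E′-box beside it. No stretch comes from Clock, Arntl or Npas2, and none from Cry2, whose footprinted match in both libraries was an E′-box.

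All 10 genes had a TSS peak in their window in both libraries, as did 65.4% of protein-coding genes. Counting only peaks at a TSS of the gene itself, 9 of 10 had one in both libraries against 58.2% of protein-coding genes, and Npas2 was the exception. The 5 Per and Cry genes and both nuclear receptor genes lay far above the median protein-coding gene, whose strongest start peak measured 2.69 in replicate 1 and 1.86 in replicate 2. In each library all 7 of these repressor and nuclear receptor genes had a stronger start peak than all 3 activator genes, by the strongest peak of each gene. With all start peaks of a gene summed, the split held in replicate 1 but not in replicate 2, where Arntl came to 3.72 and Per3 to 3.59. Replicate 1 read higher at all 9 genes with both values, and the ranges over both libraries overlap between each gene and the next in their order.

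**Figure D1:**
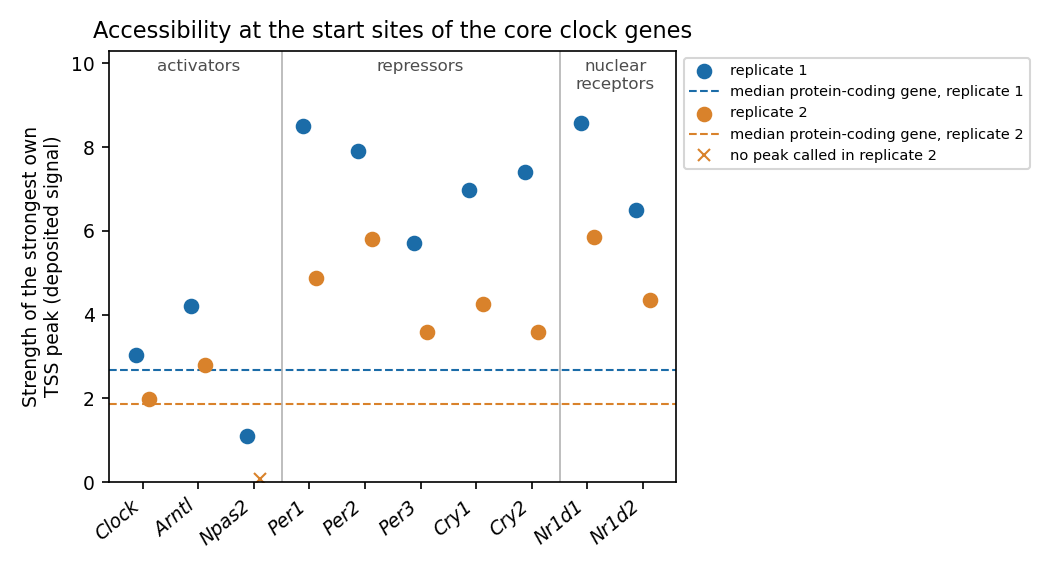
Strength of the strongest peak at a start of the gene itself (deposited signal, vertical axis) for each clock gene, with 1 point per library, and dashed lines for the median protein-coding gene with such a peak in each library. Nr1d1 is highest at 8.57 in replicate 1 and 5.85 in replicate 2, Clock lies close to the dashed line of each library, and the cross marks Npas2 in replicate 2, where no peak was called.

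Of the activators, Arntl encodes BMAL1, the partner of both CLOCK and NPAS2. Its start peak measured 4.20 in replicate 1 and 2.80 in replicate 2 (3.50 ± 0.99, SD, n = 2), at the 72.3rd and 74.6th percentile of protein-coding genes with a start peak. It lay upstream of the start, with its midpoint at -184 and -214 bp relative to the 5′ end of the gene record. A ROR core, the element through which REV-ERB proteins are known to repress Arntl, sits in the 5′ UTR at +79 bp (chr7:113207541-113207547). It was in no peak and under no footprint in either library. The upstream peaks ended at 113207460 and 113207420, before the core. Weaker start peaks began past it, at 113207921 in replicate 1 (1.32) and at 113207781 in replicate 2 (0.918). The core thus lay between called peaks, which does not show that its bases were closed. The GC content of the central 200 bp of the upstream start peak was 54.5% and 55% in the libraries, low beside the 63% median of all TSS peaks.

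Clock encodes the DNA-binding partner of BMAL1. Its start peak was moderate, at 3.03 in replicate 1 and 2.00 in replicate 2 (2.51 ± 0.73, SD, n = 2), the 55.5th and 53.7th percentile. The peak sat on the start itself and was GC-rich, at 76.5% and 73.5% over its central 200 bp. A weaker intron peak followed at about 0.7 kb, with 1.05 in replicate 1 and 0.943 in replicate 2.

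Npas2 encodes the forebrain relative of CLOCK, and its start was the weakest of the 10. Replicate 1 had a peak of 1.11 there (chr1:39193936-39194520), the 20.8th percentile, and replicate 2 had none. The deposited list of bases whose cut rate passed a false discovery rate (FDR) of 0.05 covered all 585 bases of that peak in replicate 1 and 14 of them in replicate 2. The strong TSS peak in the Npas2 window, 7.17 in replicate 1 and 3.62 in replicate 2, belongs to the neighbouring ribosomal protein gene Rpl31 at the far end of the window.

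The Period genes encode the PER proteins, which carry CRY proteins into the inhibitory complex. Per1 had 8.51 in replicate 1 and 4.88 in replicate 2 (6.69 ± 2.56, SD, n = 2), the 98.2nd and 97.1st percentile. Per2 had 7.92 and 5.82 (6.87 ± 1.49, SD, n = 2), the 97.3rd and 98.9th percentile. Per3, the third member of the family, had 5.70 and 3.59 (4.65 ± 1.49, SD, n = 2), the 87.1st and 88.2nd percentile. Per1 and Per2 were both above Per3 in each library, and they changed places with each other between libraries. Per1 is the only one of the 3 with further strong start peaks inside the gene. Annotated internal starts carried peaks of 4.85 and 3.19 at 3674 bp (chr11:69098781-69099000), and of 3.57 and 1.60 at about 4.8 kb.

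The Cryptochrome genes encode the CRY proteins, the main inhibitors of the activating pair. Cry1 had 6.99 in replicate 1 and 4.25 in replicate 2 (5.62 ± 1.93, SD, n = 2), the 94.5th and 94.3rd percentile, at -47 and -67 bp. A further Cry1 peak of 4.27 at -237 bp was called in replicate 1 alone. Cry2 had 7.39 and 3.59 (5.49 ± 2.69, SD, n = 2), the 95.9th and 88.1st percentile. Cry2 ranked above Cry1 in replicate 1 and below it in replicate 2. Its ratio of replicate 1 to replicate 2, 2.06, was the highest of the members and at the 91.7th percentile of protein-coding genes.

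Nr1d1 encodes REV-ERBα, and its strongest start peak was the highest of the 10 in both libraries. It had 8.57 in replicate 1 and 5.85 in replicate 2 (7.21 ± 1.92, SD, n = 2), the 98.4th and 99.0th percentile. Nr1d2 encodes REV-ERBβ and had 6.50 and 4.34 (5.42 ± 1.52, SD, n = 2), the 92.4th and 94.7th percentile. The strongest Nr1d2 peak was not at the 5′ end of the gene record but inside the gene, at 576 and 546 bp, within 500 bp of an internal start. A peak at the 5′ end itself measured 5.76 and 3.26. With all start peaks of a gene summed, Nr1d1 no longer led: Per1 came to 19.0 in replicate 1 and 11.3 in replicate 2, Nr1d2 to 12.3 and 7.60, and Nr1d1 to 9.52 and 5.85. Cry1 came to 11.3 and 5.03, above Nr1d1 in replicate 1 and below it in replicate 2. The ratio of replicate 1 to replicate 2 ran from 1.36 at Per2 to 2.06 at Cry2, with a median of 1.51 over the 9 members with both values. Over protein-coding genes the median was 1.55, and the 10th to 90th percentile ran from 1.13 to 2.02, so the members were scaled between libraries much like other genes, Cry2 being outside that range.

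Away from start sites the members held more peaks than a typical gene. The windows held 104 peaks in replicate 1 and 73 in replicate 2, of which 78 and 50 were over 500 bp from any annotated TSS. The median member had 6.5 such peaks in replicate 1 and 3 in replicate 2, while the median over protein-coding genes was 1 in each library. Member windows were longer (median 62.2 kb against 37.4 kb), but per 100 kb the medians were still 6.55 and 6.13 against 2.82 and 1.67. These medians cover all protein-coding genes, of which 58.2% had a start peak of their own in both libraries, against 9 of 10 members. Whether the members exceed genes with such a start peak was not tested. In 9 of 10 members at least 1 such peak overlapped between libraries, the exception being Nr1d2, against 54.9% of protein-coding genes. Fewer of the members' peaks were found again: 30 of 78 (38.5%) of replicate 1 overlapped a peak of replicate 2, against 53.1% of all such peaks. In the other direction 31 of 50 (62%) overlapped, against 82.1%. At TSS peaks the shares, 76.9% and 87.0%, were close to those of all TSS peaks, 75.1% and 88.9%.

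**Figure D2:**
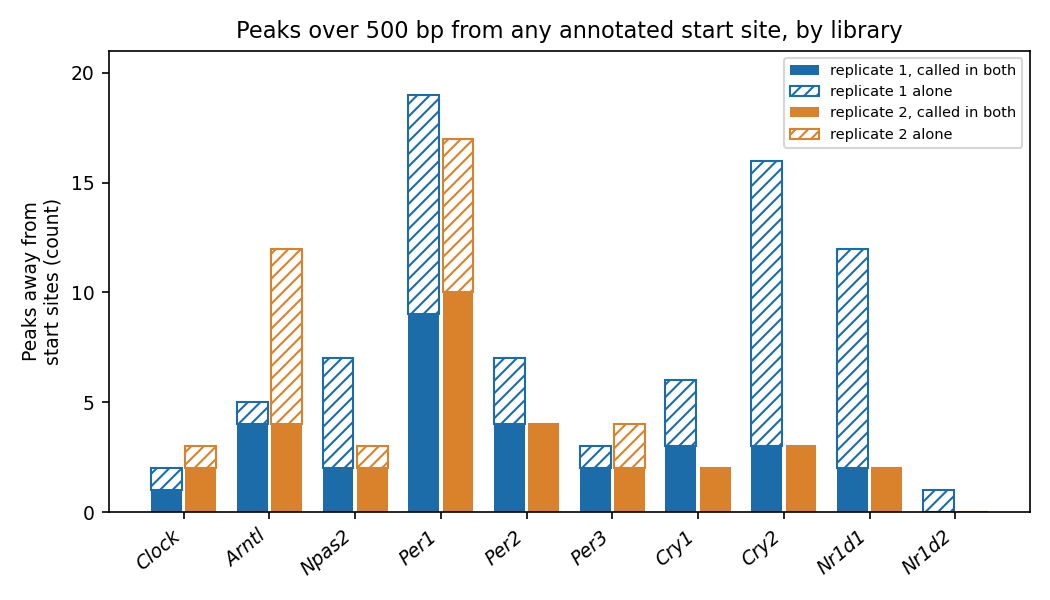
Number of peaks over 500 bp from any annotated start in each gene's window (vertical axis), with solid bars for peaks overlapping a peak of the other library and hatched bars for peaks of that library alone. Per1 has many in both libraries (19 and 17), while most of those at Cry2 and Nr1d1 come from replicate 1 alone and most of those at Arntl from replicate 2 alone.

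Away from starts, peaks found in a single library were weaker at the median than the members' shared peaks. Those of replicate 1 had a median strength of 0.435 (48 peaks, at most 1.49), against 1.26 for the 30 that were shared. Those of replicate 2 had a median of 0.532 (19 peaks, at most 0.798), against 0.926 for the 31 shared. Over all peaks away from starts the median was 0.576 in replicate 1 and 0.626 in replicate 2. The members' single-library peaks lay on both sides of these medians. Such peaks came in runs. Replicate 1 alone had 13 at Cry2, 10 at Nr1d1 and 10 in the 3′ part of the Per1 region (0.315 to 0.489). Replicate 2 alone had 8 at Arntl (0.472 to 0.635) and 7 at Per1. Such runs are given here as single-library calls, and the shared peaks carry the description that follows.

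**Figure D3:**
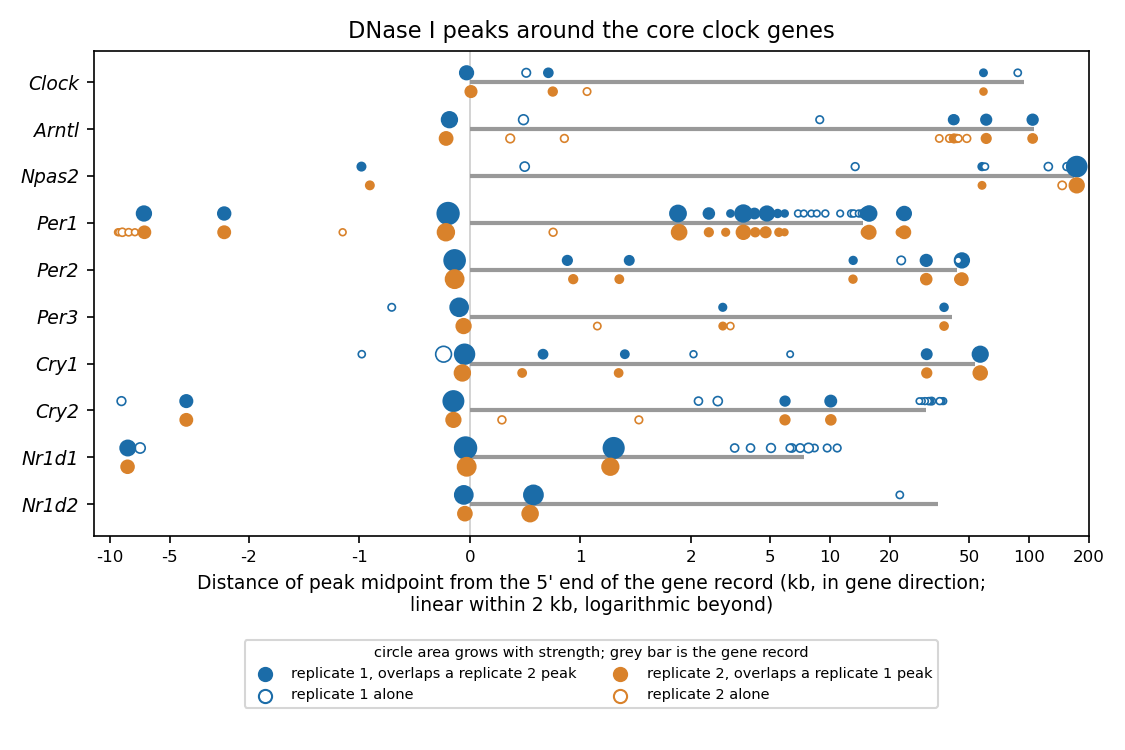
Peaks around each clock gene by distance of the midpoint from the 5′ end of the gene record (kb, horizontal axis, linear within 2 kb and logarithmic beyond), with replicate 1 above and replicate 2 below each line and circle area growing with strength. Large filled circles, which overlap between libraries, stand at the starts of 9 genes, inside Nr1d1 at 1302 bp in replicate 1, at several places in the Per1 window and at the starts of the neighbours Rpl31, Hes6 and Mterf2 at the right-hand ends. Open circles, called in a single library, are small except the Cry1 peak of 4.27 upstream of its start.

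The strongest of all shared peaks away from starts was inside Nr1d1. This intron peak (chr11:98773841-98774220 in replicate 1) measured 7.55 in replicate 1 and 4.79 in replicate 2, nearly as strong as the Nr1d1 start peak. It holds the D-box and the E-boxes printed above as the Nr1d1 intron. A distal Nr1d1 peak (chr11:98783381-98783500), at -8108 bp, measured 3.98 and 2.69. Its replicate 2 counterpart was longer (98783321 to 98783600) and takes in the distal E-box printed above, while the replicate 1 peak ended before it. The nearest TSS to both was that of Nr1d1. Nr1d2 had no shared peak of this kind, because its corresponding intron peak lay within 500 bp of an internal start.

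Per1 had the most shared peaks away from starts. An intron peak at 1884 bp (chr11:69097001-69097200) measured 4.49 in replicate 1 and 3.81 in replicate 2, and the printed CRE starts just past its end in replicate 1 and lies inside the longer peak of replicate 2 (69096981 to 69097240). An upstream peak at -2656 bp (chr11:69092481-69092640) measured 2.62 and 2.38. Beyond the 3′ end, peaks of 3.78 and 2.97 (chr11:69110861-69111080) and of 3.15 and 2.37 (chr11:69118741-69119000) had Hes7, which encodes a transcriptional repressor, as the gene with the nearest start. Every one of these 4 Per1 peaks measured over 2 in each library.

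The other members had weaker distal peaks. Cry2 had an upstream peak at -4118 bp (chr2:92438081-92438240) of 2.45 in replicate 1 and 2.36 in replicate 2, and an intron peak (chr2:92423841-92424040) of 1.94 and 1.39. The strongest at Per2 was an intron peak 30503 bp inside the gene (chr1:91428721-91428920) of 2.06 and 1.78, whose nearest start is that of Hes6, a gene of the HES family. Cry1 had an intron peak 30673 bp inside (chr10:85154301-85154480) of 1.53 and 1.28. Among the activators, Arntl had intron peaks of 1.68 and 1.10 (chr7:113311881-113312080) and of 1.63 and 1.23 (chr7:113268421-113268620), the latter nearest to the start of Gm45355. The strongest shared distal peaks of Npas2 (0.837 and 0.806, at -980 bp), Per3 (0.690 and 0.746) and Clock (0.502 and 0.412) were all under 1 in both libraries. The ratio of replicate 1 to replicate 2 over the 30 shared peaks had a median of 1.25, against 1.16 over all 36188 such peaks.

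The windows held 329 footprints in replicate 1 and 221 in replicate 2, of which 149 and 113 lay within 500 bp of a TSS. The median member had 13.5 and 9.5 of these TSS footprints, against 9 and 7 over protein-coding genes with a start peak of their own. These counts take in starts of any gene in the window, such as Rpl31 at Npas2, and member windows were longer. Of the TSS footprints, 53 of 149 in replicate 1 and 35 of 113 in replicate 2 lay inside a member's gene record. That record leaves out bases upstream of the start. Whether the members differ at their own starts was not tested. Per1 had the most TSS footprints, 27 in each library, and Nr1d1 the fewest in replicate 1 with 7. Nr1d1 instead had 46 footprints away from starts in replicate 1 and 15 in replicate 2, and Per1 had 39 and 35. Of the members' footprints, 42.6% in replicate 1 and 65.2% in replicate 2 overlapped a footprint of the other library, against 37.4% and 58.2% of all footprints.

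E-boxes, the sites of the CLOCK and BMAL1 pair, lay under footprints in both libraries in 4 of 10 members, against 5.95% of protein-coding genes. The 4 were Per1, Cry1, Nr1d1 and Nr1d2, with 10 such E-boxes in all of the 118 in the members' windows. Windows of members were longer and held more footprints, so that share is not matched for size. The same holds for the shares of genes given below for the D-box, E′-box, CRE, ROR core and GC box. Per footprint, 4.70% of the members' TSS footprints in replicate 1 and 5.31% in replicate 2 overlapped an E-box, against 1.28% and 1.31% of all TSS footprints. Away from starts the shares were 3.33% and 4.63% against 0.896% and 0.873%. These member shares rest on 7, 6, 6 and 5 footprints. Those at starts came from Per1, Cry1 and Nr1d2. Those away from starts came mostly from Nr1d1 alone, with others at Cry2 in replicate 1 and at Npas2 in replicate 2. The shares are thus not a trait of all members. Of RefSeq promoters of 300 bp on GRCm38, 7.15% held an E-box. The members matched 13 of these promoters under 9 symbols, all but Per2, and 2 of the 13 held an E-box.

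Per1 had its pair of E-boxes at -331 and -147 bp, 184 bp apart from start to start. Cry1 had its E-box at -48 bp, and the E′-box printed beside it was not under a footprint at the 5 bp setting in either library. At Nr1d1, 3 E-boxes lay in the intron peak at 1176, 1456 and 1471 bp, the closest pair 15 bp apart from start to start, and another lay at -8212 bp. In replicate 2 that pair shares a single footprint, which overlaps the E-box at 1471 bp. There the E-box at 1456 bp counted only through the widening by 5 bp. At Nr1d2, 3 E-boxes lay in the intron at 451, 554 and 599 bp. Having 3 or more footprinted E-boxes in both libraries was uncommon, at 24 genes or 0.109% of protein-coding genes, and both nuclear receptor genes were among them. This count was looked at after the members' values were seen. Thra is also among the 24, but its window takes in the same 3 E-boxes of the Nr1d1 intron. Neighbouring genes can share sites in this way, so the 24 are genes and not separate places. Lone footprinted E-boxes in a single library were a Per1 site and 2 Cry2 intron sites in replicate 1 and an Npas2 intron site in replicate 2.

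D-boxes lay under footprints in both libraries in 4 of 10 members, Per2, Per3, Nr1d1 and Nr1d2, against 2.62% of protein-coding genes. D-boxes are the sites of DBP, TEF and HLF, activators whose own genes are clock controlled, and of their competitor NFIL3. The matches were at -122 bp in Per2, -155 bp in Per3, 1249 bp in Nr1d1 and 520 bp in Nr1d2. The Per3 site also lies in an intron of Camta1. The motif leaves a pair of positions free, but all 4 members had the same letters, TTATGTAA on either strand. Of all 568 D-box matches under a footprint in both libraries 10.2% had these letters, and 7.44% of D-box matches in the genome. A footprinted match with these letters was found in the windows of 0.269% of protein-coding genes. The letters were looked at after the matches were known. Of RefSeq promoters 11.5% held a D-box match of any letters, as did 3 of the 13 of the members. Among TSS footprints, 3.36% of the members' in replicate 1 and 3.54% in replicate 2 overlapped a D-box, against 0.443% and 0.471% of all, which rests on 5 and 4 footprints. Away from starts the members' shares, 1.11% and 0.926%, were close to the 0.988% and 1.01% of all such footprints. They rest on 2 footprints in replicate 1 and 1 in replicate 2.

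**Figure D4:**
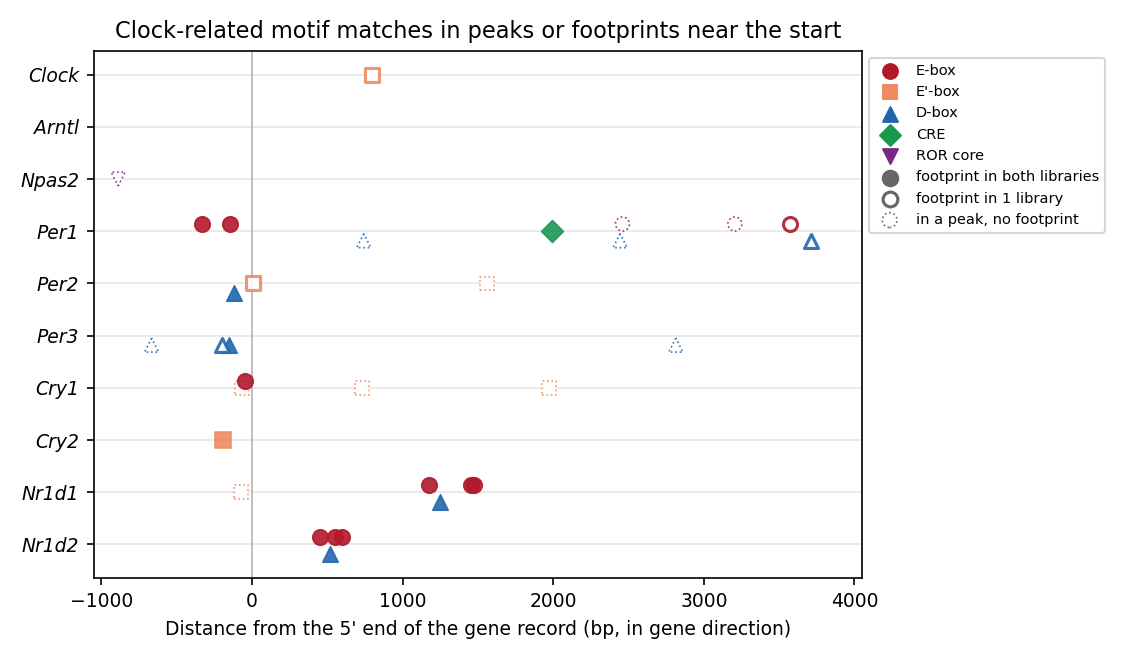
Matches to clock-related motifs that lay in a peak or under a footprint, by distance from the 5′ end of the gene record (bp, horizontal axis), for each clock gene. Filled symbols are under a footprint in both libraries, open solid ones in a single library and dotted ones in a peak without a footprint; the distal Nr1d1 E-box at -8212 bp is outside the range. Filled E-box and D-box symbols stand together at Nr1d1 and Nr1d2, and Arntl has no match in the range.

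The E′-box was footprinted in both libraries in 1 member, Cry2 (at -190 bp), against 2.32% of protein-coding genes, and 4.68% of RefSeq promoters held one, as did 3 of the 13 of the members. That count depends on the 5 bp setting. With footprints widened by 10 bp, an E′-box each of Clock, Cry1 and Nr1d1 also counted in both libraries. Per2 had an E′-box at 7 bp (chr1:91459314-91459319) under a footprint in replicate 1 only, and Clock had one at 795 bp in replicate 2 only. The CRE was footprinted in both libraries in 1 member, Per1 (at 1989 bp, chr11:69097202-69097209), against 3.81% of genes, and 1.79% of RefSeq promoters held one, as did 0 of the 13. No member had a footprinted ROR core in both libraries, against 0.593% of genes, and 2.61% of RefSeq promoters held one, as did 1 of the 13. The windows held 112 ROR cores, of which 2 lay in a peak of either library, 1 each at Npas2 and Cry2. The GC box, a site of SP1 and related factors, was footprinted in both libraries in 9 of 10 members, all but Clock, against 41.4% of genes, and 35.7% of RefSeq promoters held one, as did 11 of the 13. At the 5 bp setting Clock, Arntl and Npas2 had no E-box, E′-box, D-box, ROR core or CRE under a footprint in both libraries.

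A wider list of clock-related genes was set beside the 10, and 19 of its 20 genes had a peak at a start of their own in both libraries, against 58.2% of protein-coding genes. Their median strength was 2.08 in replicate 1 and 1.47 in replicate 2, both under the median protein-coding gene. The 3 strongest were Csnk1d, a kinase that phosphorylates PER proteins (8.75 and 5.51), Btrc, part of the ligase that marks PER proteins for breakdown (8.38 and 5.56), and Usp2, a deubiquitinase (8.16 and 5.64). These values are near those of Per1, Per2 and Nr1d1.

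The FDR lists give a look at places where a peak was called in the other library only. In replicate 1, 6 of 22 such member peaks of replicate 2 held bases that passed the FDR of 0.05, and in replicate 2, 7 of 54 of replicate 1 did. None of the Per1 or Nr1d1 single-library peaks was among them. At the gene starts of the members other than Npas2, bases passing in each library ranged from 725 to 3158 in replicate 1 and from 531 to 3373 in replicate 2. These counts cover only the bases around annotated starts, so they are capped and can grow with the number of starts. Per2, Per3 and Cry1 each had 1001 in both libraries, and Arntl had 1093 in both. The range therefore does not rank the genes by openness.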

How the data were processed

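DNase-seq peaks, footprints and FDR stretches of 2 libraries were used as deposited, in mm10. Per the deposited notes, the authors called them from each library's own alignments, with no pooling. No source used here names the aligner, the callers or their thresholds. Peak strength is the signal deposited by the authors, of unstated scale. The deposited FDR file gives values on the p-value scale, all under 0.05. The footprint files hold 0.01 in every row, so positions alone were used. Each library has 2 peak lists, and the longer was used. Peaks were shared when they overlapped by 1 bp. Windows, starts and features came from GENCODE M21 and sequences from GRCm38. Percentiles are among protein-coding genes with a start peak in that library. No test was run, since there is 1 group. Python 3.11.15, numpy 2.4.6, pandas 2.3.3 and matplotlib 3.10.9 were used, and overlap, distance and motif functions were tested on simulated data. The genes named were the 10 members, the 3 strongest of a wider clock list, of which 1 gene is not reported here, and genes with a start nearest the strongest distal peaks. Members and lists were chosen with earlier results of these data known. Alternatives included the shorter peak list, other distances, equal peak numbers and each library left out.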

Additional observations from a re-analysis of the deposited data

How the results depend on the processing

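Of the alternative values for the main measures, 47 stayed close to the reported value and 12 moved. Close meant within a set fold for counts, within an SD for strengths and inside a confidence interval for shares. These limits are wide, and some outcomes with a library left out were nearly fixed in advance. The 47 therefore do not measure stability. The number of members with a TSS peak in both libraries was 9 or 10 throughout. The mean count of other peaks per library, 64, was 38 with the shorter peak list, 109.5 with a 50 kb flank and 30.5 with only peaks called in both libraries, a setting added after seeing the data. It ran from 50 to 78 with each library left out. The share of replicate 1 peaks found again, 48.1%, was 62.3% with equal numbers of strongest peaks and 37.5% with 50% reciprocal overlap. That of replicate 2, 69.9%, was 84.1% with the shorter list and 53.4% with reciprocal overlap. The mean count of TSS footprints, 131, was 44 with no flank and 266.5 with 50 kb. That of other footprints, 144, was 92 and 277.5. D-box matches, 4 in both libraries, numbered 4 to 7 with each library left out, E-box matches, 10, numbered 11 to 13, and members with an E-box numbered 5. TSS footprints ran from 113 to 149, other footprints from 108 to 180 and the median start strength from 4.25 to 6.99 with each library left out. Without widening of footprints 9 of the 10 E-boxes counted, and with 10 bp all 10 did. D-box matches numbered 4 without widening and 5 with 10 bp. E′-boxes of Clock, Cry1 and Nr1d1 counted in both libraries only with 10 bp. Summing the start peaks of a gene raised the mean of Per1 from 6.69 to 15.2, of Nr1d2 from 5.42 to 9.93 and of Cry1 from 5.62 to 8.14, all above Nr1d1 at 7.69, and put Arntl (4.62) close to Per3 (4.65). No paired analysis was possible because the libraries form 1 group.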

Other observations

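Several neighbours of the clock genes had strong start peaks of their own inside the windows. Vamp2, which encodes a synaptic vesicle protein, lies upstream of Per1 and had a start peak of 3.63 in replicate 1 and 2.28 in replicate 2. Hes6, beyond the 3′ end of Per2, had 3.62 and 2.37. Mterf2, which encodes a protein of the mitochondrial transcription termination factor family and lies beyond Cry1, had 4.14 and 3.17. Each was weaker than the start peak of its clock gene neighbour in both libraries, whereas the Rpl31 peak in the Npas2 window was far stronger than the Npas2 start.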
